A study of Mus musculus with 12 samples.

Results

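The subunits of oxidative phosphorylation were followed in mouse E14 embryonic stem cells (ESCs), an established line, in which the circular RNA circKat6b-e2 had or had not been knocked down (KD). Members were chosen by symbol alone: 101 of the 52636 genes counted carried the name of a subunit of respiratory complexes I to V, of which 13 lie on the mitochondrial genome and 88 in the nucleus. Complex I had 47 members, complex II 4, complex III 9, complex IV 22 and complex V 19. Another 8 names that matched the rule were left out as pseudogene names. Ndufa4 and Ndufa4l2 were counted with complex I by their symbols, although Ndufa4 has since been assigned to complex IV, and Cyc1, Cycs and Ndufab1, whose products belong to the same machinery, lie outside the naming rule.

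The 4 groups were KD embryoid bodies (EBs) at day 6, wild-type (WT) EBs at day 6, KD ESCs and WT ESCs, with 3 libraries each, stated to be biological replicates. In EBs, cells grow as clumps and begin to differentiate. The titles mark the KD as an shRNA, and a control shRNA in WT cells and the clonal origin of KD cells are not stated in the labels, so each KD minus WT value also holds any other difference between these populations. All ESCs were grown on gelatin with fetal bovine serum, LIF, the MEK inhibitor PD0325901 and the GSK3 inhibitor CHIR99021, and libraries were made from poly-A-selected RNA, which does not retain a circular RNA.

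Complexes I, III and IV pump protons across the inner mitochondrial membrane as electrons pass from NADH to oxygen, complex II feeds in electrons from succinate without pumping, and complex V (ATP synthase) uses the gradient to make ATP. Complex II is wholly nuclear, while the other complexes join a hydrophobic core encoded by mitochondrial DNA to nuclear subunits. Mitochondrial genes are transcribed as long polycistronic RNAs that are cut at tRNAs, whereas each nuclear subunit gene has its own promoter, often with sites for NRF1, GABPA (an ETS factor) or YY1. Naive ESCs respire as well as use glycolysis, and exit from pluripotency changes the balance between the pathways.

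Sequences are shown first for mitochondrial genes whose counts are uncertain. On nuclear chromosome 1 lies a copy of part of the mitochondrial genome, and over 90 bases from the start of mt-Co2 (chrMT:7013-7102, plus strand, GRCm38) and of its annotated copy Gm28661 (chr1:24615476-24615565, minus strand) no base differs. The same stretch of mt-Nd3 (chrMT:9459-9548, plus strand) and Gm28438 (chr1:24613030-24613119, minus strand) differs at the base in capitals.
mt-Co2: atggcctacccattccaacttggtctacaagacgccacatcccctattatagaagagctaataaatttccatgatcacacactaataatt
Gm28661: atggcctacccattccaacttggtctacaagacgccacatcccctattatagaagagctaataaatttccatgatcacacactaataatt
mt-Nd3: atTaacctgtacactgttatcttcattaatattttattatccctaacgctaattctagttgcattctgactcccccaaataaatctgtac
Gm28438: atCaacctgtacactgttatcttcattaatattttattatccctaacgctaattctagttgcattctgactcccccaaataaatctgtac
Over the bases compared, the length of each annotated copy, mt-Co2 and Gm28661 were identical at 681 of 681 bases, mt-Atp6 and Gm10925 at 678 of 678, mt-Co3 and Gm28437 at 783 of 783, mt-Nd4l and Gm10222 at 294 of 294, and mt-Nd3 and Gm28438 at 344 of 345. Apart from a read over the differing base of mt-Nd3, a read within the compared bases cannot be assigned to either copy by sequence.

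For nuclear members, RefSeq promoter windows of GRCm38.p6, from 250 bases before to 50 bases after the transcription start, were matched for 68 of 88 genes (73 windows). The NRF1 motif, GCGCA then any base then GCGC, searched on both strands, was present in 24.7% of member windows and in 4.60% of all 32851 windows of the table. The YY1 motif AAGATGGC was present in 13.7% of member windows and 2.75% of all, the ETS motif CCGGAAGT in 6.85% and 3.89%, and the HIF core ACGTG in 26.0% and 19.6%. Windows of members that were lower in KD EBs held the NRF1 motif in 22.5% of 40 windows, and those of the other members in 27.3% of 33. A match is a description of letters only. The windows below belong to the ATP synthase c-ring genes Atp5g2 (chr15:102670998-102671297) and Atp5g3 (chr2:73911277-73911576), whose transcripts differed in opposite directions in KD EBs, and to the cytochrome oxidase gene Cox6a1 (chr5:115348909-115349208), all on the minus strand, with NRF1 motif matches in capitals.
Atp5g2: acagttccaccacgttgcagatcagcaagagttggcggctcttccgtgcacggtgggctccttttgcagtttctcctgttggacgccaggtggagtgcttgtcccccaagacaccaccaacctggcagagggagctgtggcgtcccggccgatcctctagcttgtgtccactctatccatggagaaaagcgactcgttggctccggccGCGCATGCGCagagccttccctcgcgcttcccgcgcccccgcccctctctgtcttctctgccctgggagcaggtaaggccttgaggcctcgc
Atp5g3: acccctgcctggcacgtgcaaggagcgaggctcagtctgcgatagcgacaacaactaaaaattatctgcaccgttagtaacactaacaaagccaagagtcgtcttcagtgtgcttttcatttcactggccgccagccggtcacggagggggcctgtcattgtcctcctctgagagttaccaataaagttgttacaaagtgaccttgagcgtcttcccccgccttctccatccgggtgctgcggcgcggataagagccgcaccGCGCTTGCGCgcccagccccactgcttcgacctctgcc
Cox6a1: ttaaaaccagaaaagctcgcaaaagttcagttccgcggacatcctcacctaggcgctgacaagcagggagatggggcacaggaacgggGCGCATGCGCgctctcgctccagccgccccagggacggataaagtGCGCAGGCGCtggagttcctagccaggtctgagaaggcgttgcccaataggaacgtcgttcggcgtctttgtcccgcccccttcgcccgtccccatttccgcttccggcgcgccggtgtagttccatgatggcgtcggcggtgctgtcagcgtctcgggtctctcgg

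Total counts lay between 25377626 and 37770596 per library, and 95 to 100 of the 101 members had a count in a given library. Levels are given as CPM, the counts scaled to a library of 1000000 counts. The circular RNA itself was not measured, and its host gene Kat6b had 71.8, 70.9 and 68.9 CPM in KD EBs against 36.8, 36.1 and 34.6 CPM in WT EBs, and 90.9, 84.6 and 90.8 CPM in KD ESCs against 75.7, 56.3 and 68.9 CPM in WT ESCs. The summed level of 8 naive ESC markers was 322 to 354 CPM in KD EBs, 176 to 182 CPM in WT EBs, 4394 to 4467 CPM in KD ESCs and 3487 to 4104 CPM in WT ESCs. WT ESC replicate 2 stood apart from the other WT ESC libraries for many members. The main counts of calls and medians of KD minus WT ESCs are given with and without it. Other values include it unless stated. Below, CPM of KD and WT within a stage use the normalization of that stage, CPM set across stages use that of all 12 libraries, and levels of different genes are compared only per length, as CPM per kilobase. Values are means ± SD with n = 3 where not given per library. Called means an adjusted p under 0.05 in edgeR's quasi-likelihood test over all tested genes, and a positive log2 fold change means higher in KD than in WT, or higher in EBs than in ESCs.

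Mitochondrial and nuclear members took different shares of the libraries. The 13 mitochondrial members held 1.62, 1.51 and 1.49% of all counts in KD EBs, 1.44, 1.48 and 1.42% in WT EBs, 1.51, 1.56 and 1.65% in KD ESCs, and 1.30, 1.27 and 1.31% in WT ESCs. The 88 nuclear members held 0.778, 0.806 and 0.825% in KD EBs, 0.845, 0.880 and 0.888% in WT EBs, 2.23, 2.21 and 2.15% in KD ESCs, and 2.37, 2.77 and 2.36% in WT ESCs. At both stages every KD library lay above every WT library of its stage for the mitochondrial share and below it for the nuclear share. Nuclear counts per mitochondrial count were 0.522 ± 0.0375 in KD EBs and 0.602 ± 0.0197 in WT EBs, and 1.40 ± 0.0845 in KD ESCs. In WT ESCs they were 1.94 ± 0.209, at 1.83, 2.18 and 1.81 per library, highest in replicate 2. The counts of 6 of the 13 mitochondrial members are uncertain, as described below, which limits the mitochondrial share and this ratio.

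**Figure D1:**
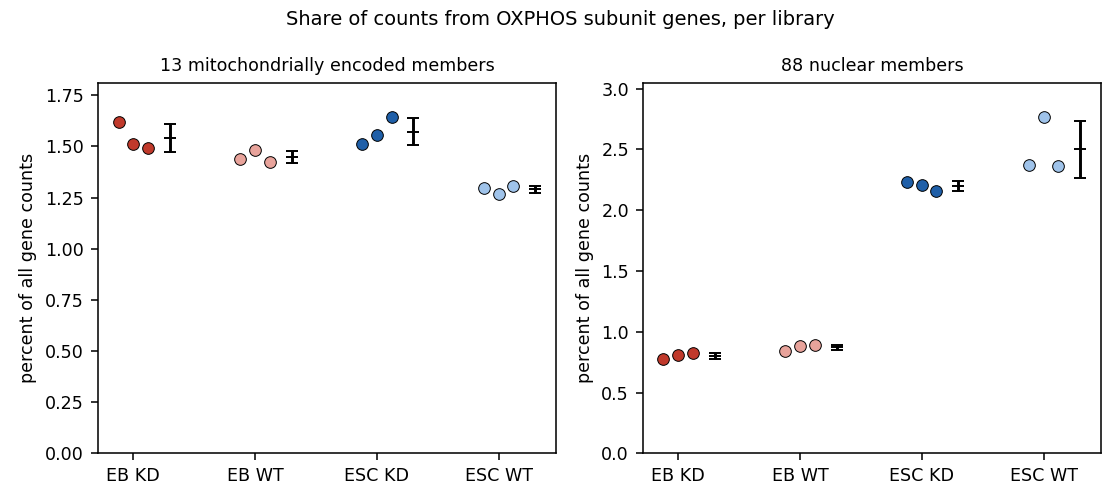
Percent of all gene counts from the 13 mitochondrially encoded members (left) and the 88 nuclear members (right), with 1 point per library and the mean ± SD (n = 3) beside each group. The nuclear share was 0.803% in KD EBs and 0.871% in WT EBs, and 2.20% in KD ESCs and 2.50% in WT ESCs.

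Per length, mt-Co1, the catalytic subunit of cytochrome oxidase, had the highest level of all members in each of the 4 groups, with group means of 4082 CPM per kilobase in KD EBs, 4851 in WT EBs, 3519 in KD ESCs and 2658 in WT ESCs. mt-Nd1, a complex I core subunit, followed it in WT EBs, KD ESCs and WT ESCs, and mt-Cytb, the cytochrome b of complex III, followed it in KD EBs. In WT ESCs mt-Co1 (2658 ± 757.5) and mt-Nd1 (2638 ± 15.2) did not differ beyond the spread between libraries on this scale. The nuclear members with the highest level per length were Atp5a1, Cox8a, Atp5b and Cox6a1 in WT EBs, at 255, 241, 225 and 215 CPM per kilobase. Length is the gene length given with the counts, 3135 bases for Atp5a1 and 4237 for Atp5b, against coding lengths of 1659 and 1587. The order of genes with similar values depends on the length used. In WT ESCs Cox6a1 led at 2120 and Cox8a followed at 1857 CPM per kilobase. Cox6a1 and Cox8a encode small structural subunits of complex IV, and Atp5a1 and Atp5b the alpha and beta subunits of the catalytic F1 head of ATP synthase.

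The mitochondrial mRNAs fell into 2 blocks of level that follow their position. The 6 neighbouring genes from mt-Co2 to mt-Nd4l had group means between 1.44 and 59.3 CPM per kilobase in KD EBs, 0.970 and 46.6 in WT EBs, 1.21 and 250.3 in KD ESCs, and 1.57 and 132.8 in WT ESCs. The other 7 genes had group means between 497 and 4082 in KD EBs, 406 and 4851 in WT EBs, 988 and 3519 in KD ESCs, and 827 and 2658 in WT ESCs. No gene of the first block overlapped the second in any group. Of the first block, 5 genes shared between 97.6 and 99.9% of their 100-base words with annotated transcripts on chromosome 1, and mt-Atp8 shared none. mt-Atp8 lies between mt-Co2 and mt-Atp6, and the annotated copies of these genes leave the stretch between them on chromosome 1 uncompared. Only annotated transcripts were compared, so the lack of shared words does not show that mt-Atp8 is unique. In the second block mt-Nd4 shared 60.8%, mt-Co1 30.8%, mt-Nd2 3.20%, and mt-Nd1, mt-Nd5, mt-Nd6 and mt-Cytb none. The treatment of reads with several alignments is not given in the sources used here. The counts of these 5 genes and of mt-Atp8 are therefore uncertain, and those of mt-Nd4 and mt-Co1 to the extent of the shared words.

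**Figure D2:**
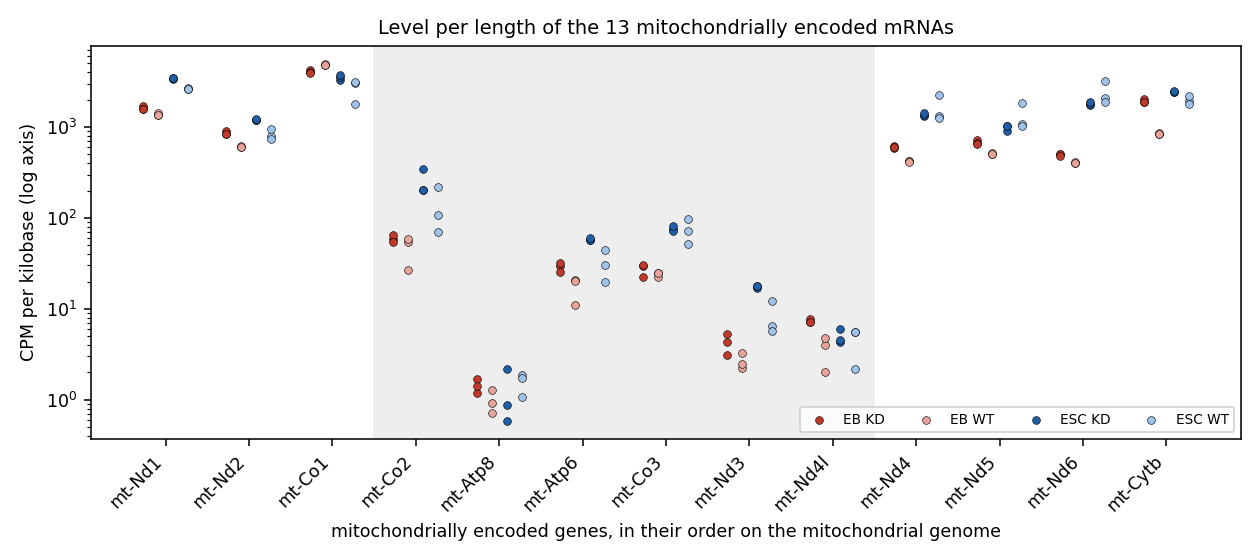
Level per length (CPM per kilobase, log axis) of the 13 mitochondrially encoded mRNAs in the order of their genes, with 1 point per library and 4 groups per gene. The shaded block from mt-Co2 to mt-Nd4l lies below the unshaded genes, with medians of 17.4 against 862 in KD EBs and 10.5 against 609 in WT EBs.

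In EBs the KD was accompanied by a split between the genomes: mitochondrial mRNAs were mostly higher and nuclear subunit mRNAs mostly lower than in WT. Of 94 members tested, 12 rose and 48 fell in KD EBs, so 63.8% were called, against 55.7% of all 17355 genes tested (28.0% higher and 27.7% lower). Of 12 mitochondrial members tested 7 rose and 1 fell, with a median log2 fold change of 0.40, and of 82 nuclear members tested 5 rose and 47 fell, with a median of −0.21, where the median of all genes was 0.00. The called share of the members is thus close to that of all genes, and the directions differ from the even split of all genes. In a fit of all 12 libraries the count of called members was 33, with 9 higher and 24 lower, against 35.0% of all genes (20.1% higher and 15.0% lower). The 21 nuclear members of up to 300 coding bases had a median of −0.33, and the 9 over 1200 and up to 2400 bases −0.03. Other genes of these lengths had −0.08 and 0.01, and the part of coding length in these values was not tested. In bulk samples fewer cells of a type and less RNA per cell cannot be told apart.

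The largest rise was that of mt-Cytb, at 2653, 2489 and 2482 CPM in KD EBs against 1141, 1176 and 1138 CPM in WT EBs, a log2 fold change of 1.14 (SE 0.03, edgeR adjusted p = 4.73e-25). Its KD libraries all lay at more than 2400 CPM and its WT libraries all under 1200 CPM. mt-Nd4 had 987, 937 and 942 CPM in KD EBs and 689, 701 and 673 CPM in WT EBs, a log2 fold change of 0.47 (SE 0.03, edgeR adjusted p = 4.62e-15). mt-Nd2 had 1078, 998 and 1000 CPM in KD EBs and 752, 775 and 739 CPM in WT EBs, a log2 fold change of 0.44 (SE 0.03, edgeR adjusted p = 1.95e-13). Both encode proton-pumping membrane subunits of complex I, and neither had overlapping groups. The other complex I genes that rose were mt-Nd5 (0.35), mt-Nd6 (0.23), mt-Nd1 (0.18) and the low-count mt-Nd4l (0.96), whose call was lost in 1 of 6 fits that left out a library. mt-Nd5 and mt-Nd6 overlap at their ends on opposite strands, and the counting named no strand option. RNA of the opposite strand over mt-Nd6 may therefore be counted as mt-Nd6, so its rise may not be separate from that of mt-Nd5.

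mt-Co1 differed from the other abundant mitochondrial mRNAs in direction. It had 7612, 7092 and 6984 CPM in KD EBs and 8900, 9148 and 8808 CPM in WT EBs, a log2 fold change of −0.31 (SE 0.03, edgeR adjusted p = 2.07e-09), with no overlap. As a share of the counts of the 13 mitochondrial members, mt-Co1 took 47.2, 47.2 and 47.0% in KD EBs and 61.7, 61.4 and 61.5% in WT EBs. The 6 genes from mt-Co2 to mt-Nd4l, whose counts are uncertain, gave on average 0.641% of these counts in KD EBs and 0.531% in WT EBs. The mt-Co1 share is thus in effect a share among the other 7 genes. Both mitochondrial rRNAs, which precede mt-Nd1 on the same strand, also fell: mt-Rnr1 had 77.4 ± 2.25 CPM in KD EBs and 210.2 ± 10.0 CPM in WT EBs (edgeR adjusted p = 1.39e-23), and mt-Rnr2 fell by 0.55 on the log2 scale (edgeR adjusted p = 2.04e-10). The mitochondrial mRNAs thus did not move as 1 unit in KD EBs. mt-Co2 (0.29), mt-Co3 (0.13), mt-Nd3 (0.61) and mt-Atp6 (0.68) did not pass the test, and mt-Atp8 had too few counts to be tested. Without the filter on low counts and with DESeq2, mt-Atp6 was called as higher.

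**Figure D3:**
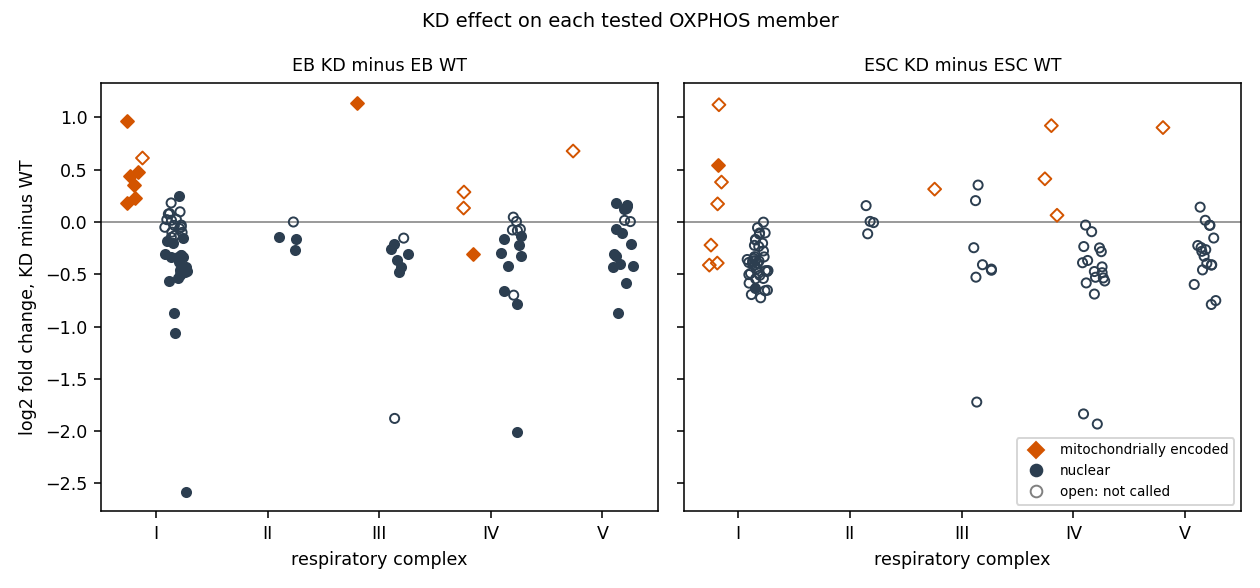
Log2 fold change (KD minus WT) of each tested member by respiratory complex, in EBs (left) and ESCs (right), where diamonds are mitochondrial and circles nuclear genes and open symbols did not pass an edgeR adjusted p of 0.05. Most nuclear members lie below 0 at both stages (65 of 82 in EBs and 78 of 84 in ESCs), and 60 members in EBs but 2 in ESCs are filled.

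The nuclear subunits of complex I fell in 19 and rose in 1 of 38 tested members in KD EBs (median log2 fold change −0.19). Called were 52.6% of these members and 48.3% of the 29 accessory subunits. Of all genes tested 55.7% were called, 28.0% higher and 27.7% lower. Ndufs1, the iron-sulfur core subunit that takes electrons from the flavin end of the complex, had 64.6, 61.9 and 59.1 CPM in KD EBs against 88.8, 93.2 and 91.8 CPM in WT EBs, a log2 fold change of −0.56 (SE 0.05, edgeR adjusted p = 2.19e-11). Its groups did not overlap. Among the 29 accessory subunits 14 fell and none rose, and Ndufa12 fell most, at 15.8, 17.4 and 22.6 CPM in KD EBs against 42.3, 30.6 and 29.0 CPM in WT EBs, a log2 fold change of −0.87 (SE 0.21, edgeR adjusted p = 0.0169). The Ndufa12 call was lost in 2 of 6 fits that left out a library. Ndufb4c, a copy named after the accessory subunit Ndufb4, was low and fell by 1.07 (SE 0.34), at 0.939 ± 0.135 CPM in KD EBs and 1.97 ± 0.667 CPM in WT EBs, and its call was lost in 1 of those fits. All 100-base words of Ndufb4c are shared with Ndufb4, itself called lower, so reads of the copies cannot be told apart.

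In complex II, which also serves the tricarboxylic acid cycle, 3 of 4 subunits fell by small amounts, where 27.7% of all genes tested were lower. Sdhd, a membrane anchor, had 105.3, 122.2 and 119.6 CPM in KD EBs and 138.5, 142.7 and 137.7 CPM in WT EBs, a log2 fold change of −0.27 (SE 0.05, edgeR adjusted p = 1.25e-05). Sdhb, the iron-sulfur subunit, changed by −0.17 and Sdhc, the other anchor, by −0.14. Sdha, the flavoprotein, stood at 217 ± 6.96 CPM in KD EBs and 217 ± 8.54 CPM in WT EBs, and did not pass the test. In complex III, 6 of 8 nuclear members fell and none rose (median −0.34), against 27.7% of all genes lower and 28.0% higher. Uqcrh, the hinge protein that contacts cytochrome c1, had 79.7, 81.6 and 81.8 CPM in KD EBs and 108.1, 109.7 and 110.3 CPM in WT EBs, a log2 fold change of −0.43 (SE 0.04, edgeR adjusted p = 3.71e-10). The small subunits Uqcr10 (−0.48) and Uqcrq (−0.36) and the core protein Uqcrc2 (−0.31) fell too, while mt-Cytb of the same complex rose. For complex III the mitochondrial and nuclear subunits therefore differed in direction in every called member.

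In complex IV, 9 of 15 tested nuclear members fell and none rose in KD EBs (median −0.22), against 27.7% of all genes lower and 28.0% higher. Cox7a2l, which joins complexes III and IV in supercomplexes, had 103.2, 100.7 and 95.3 CPM in KD EBs and 171.9, 177.9 and 165.8 CPM in WT EBs, a log2 fold change of −0.79 (SE 0.04, edgeR adjusted p = 2.07e-16). Cox8a had 97.4, 127.4 and 125.4 CPM in KD EBs and 155.8, 156.3 and 158.2 CPM in WT EBs, a log2 fold change of −0.43 (SE 0.11, edgeR adjusted p = 0.0307). Groups of both genes did not overlap, and the call of Cox8a was lost in 3 of 6 fits that left out a library. Cox4i1, the common form of the regulatory subunit 4, stood at 236 ± 11.0 CPM in KD EBs and 235 ± 6.17 CPM in WT EBs.

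In ATP synthase 4 of 17 nuclear members rose and 10 fell in KD EBs (median −0.11), against 28.0% of all genes higher and 27.7% lower. Atp5e, the epsilon subunit of the central stalk, had 62.2, 71.1 and 72.9 CPM in KD EBs and 122, 126 and 130 CPM in WT EBs, a log2 fold change of −0.87 (SE 0.05, edgeR adjusted p = 1.14e-14). Atp5b, the catalytic beta subunit, had 1238, 1317 and 1326 CPM in KD EBs and 1114, 1154 and 1145 CPM in WT EBs, a log2 fold change of 0.19 (SE 0.03, edgeR adjusted p = 1.35e-06). Subunits of the F1 head that assemble in fixed proportion thus differed in direction. Atp5s, coupling factor B (−0.58), and Atp5k, the e subunit of the membrane domain (−0.43), fell as well.

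The c ring, the rotor of ATP synthase, is made of 1 mature protein that comes from 3 genes. Atp5g2 fell, with 151.4, 152.0 and 158.0 CPM in KD EBs against 199.5, 210.1 and 207.4 CPM in WT EBs, a log2 fold change of −0.42 (SE 0.04, edgeR adjusted p = 2.78e-11). Atp5g3 rose, with 261.0, 272.3 and 270.2 CPM in KD EBs against 235.7, 243.3 and 243.5 CPM in WT EBs, a log2 fold change of 0.15 (SE 0.03, edgeR adjusted p = 0.000242). Atp5g1 stood at 53.2 ± 1.84 CPM in KD EBs and 53.1 ± 4.95 CPM in WT EBs. Of the words of Atp5g2, 34.7% were shared with other annotated transcripts, so its count is less certain than that of Atp5g3, which shared none. The promoter windows of Atp5g2 and Atp5g3 printed above both hold the NRF1 motif.

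Ndufa4l2 and Cox4i2, which hypoxia-inducible factors are known to induce, showed the largest falls. Ndufa4l2 had 0.403, 0.525 and 0.243 CPM in KD EBs against 1.12, 2.74 and 3.16 CPM in WT EBs, a log2 fold change of −2.58 (SE 0.42, edgeR adjusted p = 4.78e-06), from 13, 16 and 8 counts in KD EBs and 36, 85 and 110 counts in WT EBs. Cox4i2, the alternative form of subunit 4, had 1.55, 1.77 and 2.28 CPM in KD EBs against 7.06, 6.78 and 8.71 CPM in WT EBs, a log2 fold change of −2.01 (SE 0.20, edgeR adjusted p = 8.04e-10). In both, all KD libraries lay below all WT libraries. Their common paralogues Ndufa4 (−0.03, SE 0.04) and Cox4i1 (0.00, SE 0.04) did not pass the test. Cox6b2, best known from testis, had 26.5 ± 3.28 CPM in KD EBs and 41.8 ± 2.25 CPM in WT EBs, a log2 fold change of −0.66 (SE 0.08, edgeR adjusted p = 4.04e-08), and its common paralogue Cox6b1 fell by 0.22.

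Markers of cell types known to use some of these isoforms differed between the EB groups, where 28.0% of all genes tested were higher and 27.7% lower. The summed level of 10 cardiac and striated muscle markers was 41.9 to 46.9 CPM in KD EBs and 75.3 to 86.0 CPM in WT EBs, with 1 of 9 tested markers higher and 4 lower. The sum of 5 testis and germ cell markers was 5.81 to 6.00 CPM in KD EBs and 5.00 to 5.47 CPM in WT EBs. Of 4 tested markers 1 was higher and none lower, and Prm1 was near the floor, at 0 in KD EBs and 0.0170 CPM in WT EBs. The sum of 7 fibroblast and mesenchyme markers was 2048 to 2088 CPM in KD EBs and 629 to 638 CPM in WT EBs, with 6 of 7 markers higher. Of the 8 naive ESC markers 7 were higher in KD EBs. The part of these cell types in the differences between KD and WT EBs was not tested.

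In ESCs few members passed the test. Of 96 members tested, 1 rose and 1 fell in KD ESCs (2.08%), against 0.603% of all 16081 genes tested. mt-Nd2 rose, with 1061, 1064 and 1075 CPM in KD ESCs against 693.6, 837.6 and 663.6 CPM in WT ESCs, a log2 fold change of 0.54 (SE 0.10, edgeR adjusted p = 0.0380). Ndufa4l2 fell, with 116.1, 114.3 and 118.8 CPM in KD ESCs against 159.4, 220.6 and 160.7 CPM in WT ESCs, a log2 fold change of −0.63 (SE 0.12, edgeR adjusted p = 0.0446). Groups did not overlap for either gene, and each call held in 2 of 6 fits that left out a library.

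Among fits that left out 1 library, the number of calls in ESCs moved most without WT ESC replicate 2. That library had the highest level of the WT ESC libraries in Cox4i1, with 1057, 1086 and 1036 CPM in KD ESCs against 1263, 1922 and 1266 CPM in WT ESCs, and in Atp5e, with 337, 339 and 301 CPM in KD ESCs against 382, 912 and 395 CPM in WT ESCs. Without it 46 members were called, 6 higher and 40 lower, against 9.35% of all genes (3.75% higher and 5.60% lower). Without WT ESC replicate 3 it was 9 members, 3 higher and 6 lower, against 1.78% of all genes (0.469% higher and 1.31% lower), and without WT ESC replicate 1 or any 1 KD ESC library it was 0. The median log2 fold change of the nuclear members was −0.39 with all libraries and −0.20 without that library, and that of the mitochondrial members 0.35 and 0.38, where the medians of all genes were 0.01 and 0.01. With all libraries, 9 of 12 mitochondrial members lay above 0 and 78 of 84 nuclear members below 0. An unadjusted edgeR p under 0.05 was found for 53 of 96 members tested, against 3449 of all 16081 genes tested. With library size alone as the scaling, the median of all genes was 0.12, those of the mitochondrial and nuclear members 0.46 and −0.27, and 3 members rose and none fell, against 0.224% of all genes (0.056% higher and 0.168% lower). With no filter 6 members rose and 44 fell, against 6.79% of all genes (2.65% higher and 4.14% lower). With DESeq2 5 rose and 32 fell, against 3.32% (0.926% higher and 2.40% lower), and in the fit of all 12 libraries 5 rose and 33 fell, against 10.5% (5.11% higher and 5.43% lower).

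By complex, the medians in ESCs were −0.39 for the 38 nuclear members of complex I, 0.00 for the 4 of complex II, −0.43 for the 8 of complex III, −0.47 for the 17 of complex IV and −0.28 for the 17 of complex V. Without WT ESC replicate 2 they were −0.21 for complex I, 0.03 for complex II, −0.21 for complex III, −0.24 for complex IV and −0.14 for complex V. No nuclear member of complex IV had a log2 fold change above 0 with or without that library, and of complex I none did with it and 2 without it. In complex II, Sdha stood at 157 ± 3.45 CPM in KD ESCs and 156 ± 13.4 CPM in WT ESCs and Sdhd at 114 ± 4.29 CPM in KD ESCs and 103 ± 10.7 CPM in WT ESCs, and neither passed the test. In EBs every KD library lay below every WT library for 50 of 82 nuclear members tested and above it for 6, against 30.5% and 30.7% of all genes tested. In ESCs it lay below for 53 of 84 nuclear members tested and above for 3, against 15.4% and 15.3% of all genes tested. Short genes in general were lower in KD ESCs: other genes had a median of −0.22 at up to 300 coding bases and 0.12 above 2400, and nuclear members of up to 300 bases had −0.45. Without WT ESC replicate 2 these medians were −0.13, 0.07 and −0.22. The part of coding length in these values was not tested.

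The KD effect differed between the stages in 21 of 97 members tested (21.6%), 16 more positive and 5 more negative in EBs, against 23.0% of all 18975 genes tested (12.8% more positive and 10.2% more negative). This share is near that of all genes. mt-Cytb differed most clearly (difference 0.90, SE 0.09, edgeR adjusted p = 5.00e-06), with 2300, 2174 and 2177 CPM in KD EBs, 955, 982 and 956 CPM in WT EBs, 2740, 2741 and 2841 CPM in KD ESCs, and 2187, 2488 and 2059 CPM in WT ESCs on the scale of all 12 libraries. Its KD libraries were above its WT libraries at both stages, by more in EBs. mt-Nd5 (0.83), mt-Nd4 (0.76), mt-Nd6 (0.69) and Atp5l, the g subunit of ATP synthase (0.79), were more positive in EBs, and Ndufa4l2 (−1.89) and Cox4i2 (−1.37) more negative. Over 12 fits that left out a library, the difference lay between 0.48 and 0.95 for mt-Nd5. It lay between 0.41 and 0.89 for mt-Nd4 and between 0.39 and 0.81 for mt-Nd6, which has the strand limit given above. mt-Nd5 had the opposite order in ESCs, with 1422, 1604 and 1608 CPM in KD ESCs against 1673, 2878 and 1618 CPM in WT ESCs, and WT ESC replicate 2 was again the highest. With library size alone the members split into 10 more positive and 15 more negative, and the median of all genes was −0.13, against 0.03 with TMM scaling, while 21.8% of all genes were called (7.66% more positive and 14.1% more negative). Without WT ESC replicate 2 it was 18 and 19 members, against 27.9% of all genes (14.2% and 13.7%). Without WT ESC replicate 3 it was 25 and 7 members, against 23.7% of all genes (12.2% and 11.5%). Without any 1 of the KD ESC, KD EB or WT EB libraries 10 to 13 members were called, against 17.3 to 18.8% of all genes.

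Between stages, nuclear members were lower in EBs in both genotypes. In KD cells 89 of 97 members tested fell and 1 rose in EBs, and in WT cells 87 fell and 3 rose, against 79.8% of all genes called in each comparison, of which 42.5% were higher and 37.3% lower in both. The median log2 fold change of nuclear members was −2.09 in KD and −2.26 in WT cells, and that of mitochondrial members −1.01 and −1.22, where the medians of all genes were 0.15 and 0.17. With library size alone these all-gene medians were 0.52 and 0.70, those of the nuclear members −1.72 and −1.72, and those of the mitochondrial members −0.64 and −0.68. Stage and count table coincide, so a difference between EBs and ESCs and any other difference between the libraries of the 2 tables cannot be told apart.

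mt-Co1 was higher in WT EBs, with 7446, 7639 and 7399 CPM in WT EBs against 4694, 2759 and 4866 CPM in WT ESCs, a log2 fold change of 0.87 (SE 0.16, edgeR adjusted p = 0.00026). Over 12 fits that left out a library, this WT value lay between 0.62 and 0.97 and was called in each. In KD cells it had 6601, 6195 and 6124 CPM in EBs and 5089, 5431 and 5790 CPM in ESCs (0.21, SE 0.16), which did not pass the test. Ndufs1 rose in both genotypes (0.28, SE 0.11 in KD and 0.40, SE 0.10 in WT cells), with the call in KD cells lost in 5 of 12 fits that left out a library, where the highest edgeR adjusted p was 0.243, and Uqcrc2 rose in WT cells (0.57, SE 0.15) but not by the test in KD cells (−0.02, SE 0.15).

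The complexes fell by different amounts between stages. In KD cells the median of nuclear members was −2.01 for complex I, −0.68 for complex II, −2.00 for complex III, −2.59 for complex IV and −1.84 for complex V. In WT cells it was −2.24, −0.47, −2.10, −2.91 and −1.79. Within complex II, Sdha had 190 ± 6.59 CPM in KD EBs, 182 ± 7.47 CPM in WT EBs, 183 ± 4.09 CPM in KD ESCs and 183 ± 14.8 CPM in WT ESCs, while Sdhb fell by 1.39 in KD and by 1.40 in WT cells. The c-ring gene Atp5g1 changed by −3.37 in KD and −3.86 in WT cells, and Atp5g3 by −1.28 in KD and −1.72 in WT cells, and Atp5g2 by −1.85 in KD and −1.76 in WT cells. Atp5g1 had 44.4 ± 4.02 CPM in WT EBs and 643 ± 132.2 CPM in WT ESCs, and Atp5g3 had 202 ± 3.87 CPM in WT EBs and 667 ± 69.5 CPM in WT ESCs.

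Differences between stages followed coding length across all genes, and most nuclear members are short. Other genes of up to 300 coding bases had a median EB minus ESC log2 fold change of −1.04 in KD and −1.24 in WT cells, and those above 2400 bases 1.09 and 1.07. Nuclear members of up to 300 bases had −2.46 and −2.91, those over 300 and up to 600 bases −1.99 and −2.23 against −0.85 and −0.90 in other genes, and those over 1200 and up to 2400 bases −1.11 and −1.03 against 0.35 and 0.40. Members thus had a lower median than other genes in each bin, a description with no test that rests on 10 and 9 members in the bins above 600 bases, and the part of coding length in the fall of the nuclear members was not tested.

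**Figure D4:**
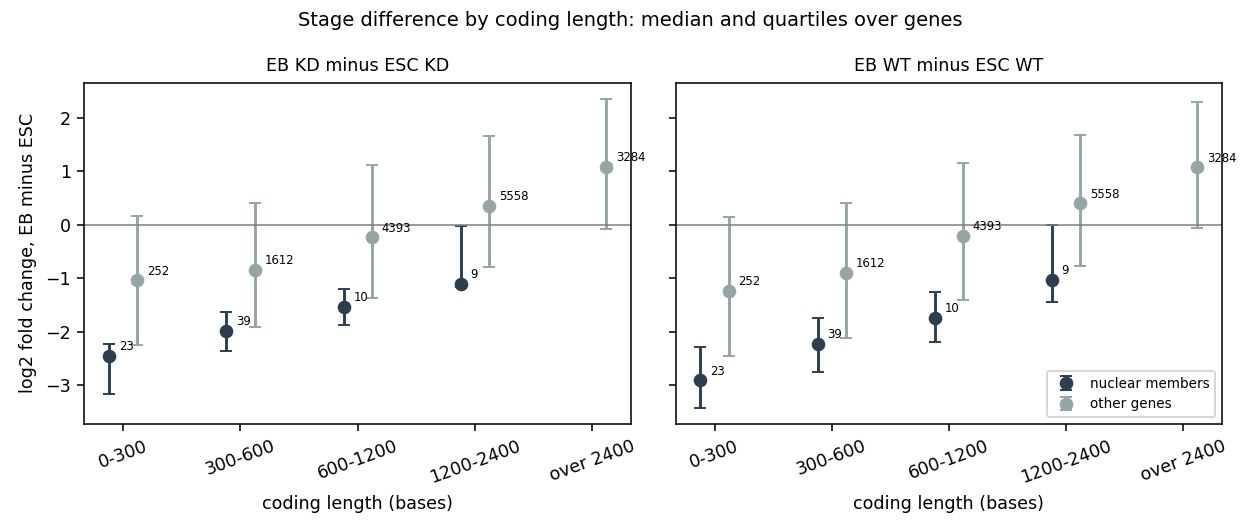
Median log2 fold change (EB minus ESC, with quartiles) over nuclear members and over other genes in bins of coding length, in KD cells (left) and WT cells (right), with the number of genes beside each point. Both sets fall towards short coding length, and the 23 nuclear members of up to 300 bases have medians of −2.46 in KD and −2.91 in WT cells.

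Isoforms known from particular tissues were more abundant in ESCs than in EBs, and so were common subunits. All 11 common nuclear subunits of complex IV were called lower in EBs, against 37.3% of all genes in either genotype. Their medians were −2.39 in KD and −2.58 in WT cells. Ndufa4l2 had 0.350, 0.459 and 0.213 CPM in KD EBs, 0.937, 2.29 and 2.66 CPM in WT EBs, 135.4, 133.2 and 138.7 CPM in KD ESCs, and 187.9, 259.1 and 187.6 CPM in WT ESCs (EB minus ESC −8.63, SE 0.33 in KD and −6.74, SE 0.26 in WT cells). Its ESC and EB libraries were far from overlapping. Cox7a1, the heart and muscle form of subunit 7a, had 1.46 ± 0.194 CPM in KD EBs and 47.3 to 52.3 CPM in KD ESCs, and 1.35 ± 0.212 CPM in WT EBs and 81.0 ± 28.2 CPM in WT ESCs. Cox6b2 fell by 3.23 in both genotypes, and Cox4i2 by 3.76 in KD and 2.38 in WT cells. Over fits that left out a library, Cox4i1 lay between −2.67 and −2.54 in KD cells, against −3.92 and −3.63 for Cox4i2. In WT cells Cox4i1 lay between −3.28 and −2.94, and Cox4i2 between −2.55 and −2.09, so the common form fell more there.

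Cox6a2, the heart and muscle form of subunit 6a, had no count in the 6 EB libraries, against 18, 1 and 4 counts in KD ESCs and 19, 31 and 40 in WT ESCs, at least 11.2-fold and 43.5-fold lower in EBs with a floor of 3 counts over the EB group. Cox8c had no count in EBs either, against 11, 0 and 4 counts in KD ESCs and 30, 18 and 18 in WT ESCs. With these genes at their bounds the nuclear medians stayed at −2.09 and −2.26. The summed level of the 10 cardiac and striated muscle markers was 41.9 to 46.9 CPM in KD EBs and 76.0 to 77.1 CPM in KD ESCs, and 75.3 to 86.0 CPM in WT EBs and 71.9 to 108.1 CPM in WT ESCs. Single markers went both ways: Tnni3 averaged 2.40 CPM in KD EBs and 22.4 CPM in KD ESCs, Myl7 0.925 CPM in KD EBs and 32.6 CPM in KD ESCs, and Actc1 11.6 CPM in KD EBs and 0.0266 CPM in KD ESCs. The part of these markers' cell types in the isoform levels was not tested. Cox7b2, Cox8b, Ndufa11b and Ndufs3 had too few counts to be tested at any stage.

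**Figure D5:**
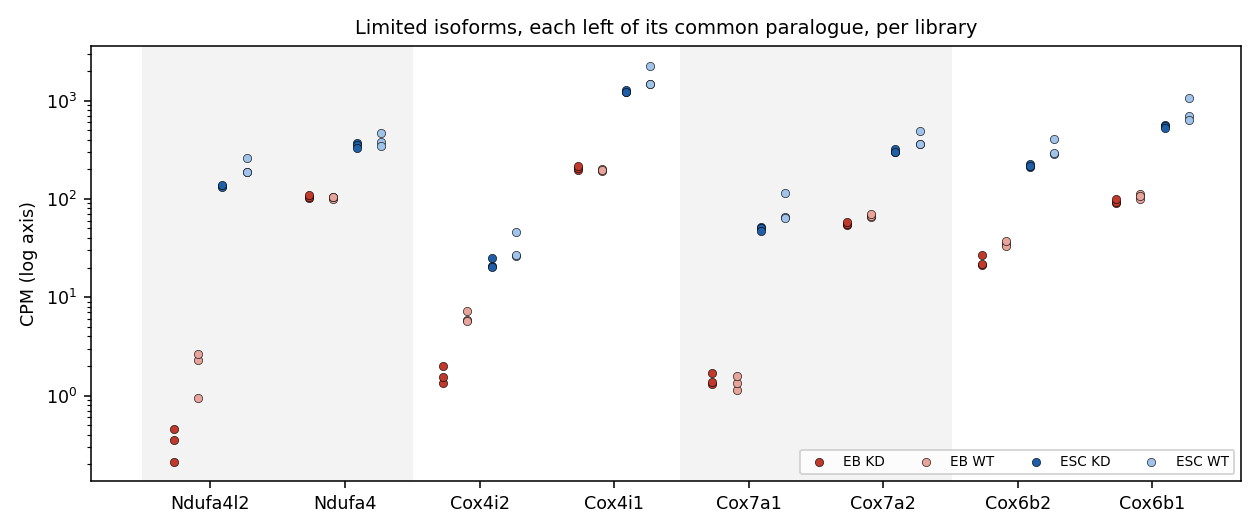
CPM (log axis, normalization of all 12 libraries) of 4 limited isoforms, each left of its common paralogue, with 1 point per library and 4 groups per gene. Ndufa4l2, Cox4i2 and Cox6b2 lie lower in KD EBs than in WT EBs, and all 4 isoforms and their common paralogues lie higher in ESCs than in EBs.

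Other genes of the mitochondrial system give the setting of these values in EBs. The counts of each list stand beside 55.7% of all 17355 genes called in KD minus WT EBs, 28.0% higher and 27.7% lower. Of 44 assembly factors 42 were tested, of which 3 rose and 18 fell in KD EBs (median −0.13). Cox14, which in human cells binds newly made COX1, fell by 0.96 (SE 0.08), at 14.9, 15.5 and 17.5 CPM in KD EBs against 30.5, 29.7 and 29.2 CPM in WT EBs, and Nubpl, an iron-sulfur assembly factor of complex I, fell by 0.77. Of 5 carriers and subunits outside the naming rule 4 fell, among them Cyc1 (−0.45), the cytochrome c1 of complex III, and Ndufab1 (−0.28), the acyl carrier subunit of complex I. Large-subunit mitochondrial ribosomal proteins (Mrpl genes) fell in 20 and rose in 1 of 48 tested genes (median −0.12). Mrpl38 (−0.76) and Mrpl23 (−0.57) were among those that fell, and small-subunit (Mrps) genes were not counted.

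Genes that maintain and transcribe mitochondrial DNA split, with 5 higher and 6 lower of 25 tested (median 0.02). Polg2, the accessory subunit of the mitochondrial DNA polymerase, fell by 0.90 and Top1mt, a mitochondrial topoisomerase, by 0.86. Of 10 tested regulators 3 rose and 5 fell, with Ppara rising by 1.38 and Ppargc1b falling by 0.90. Of 24 genes of the tricarboxylic acid cycle and pyruvate entry 3 rose and 13 fell, with Mpc1, a pyruvate carrier subunit, rising by 1.29 and Pdk2, a pyruvate dehydrogenase kinase, falling by 0.90. Of 18 genes of mitochondrial mass and import 6 rose and 7 fell (median 0.00), with the cristae organizer Immt rising by 0.42 and the import receptor Tomm20 falling by 0.56. In ESCs none of the genes on these lists was called in KD minus WT, against 0.603% of all genes tested.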

How the data were processed

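Gene-level raw counts of 12 poly-A-selected RNA-seq libraries were used as deposited, with ESCs and EBs in separate tables. The submitters' processing notes list the build mm10 and the tools HISAT2 (2.1.0), featureCounts (2.0.3) and DESeq2 (1.18.1). The authors' raw counts, per the file headers, used Ensembl release 90 gene models of GRCm38, required both mates mapped, left out chimeric pairs and named no strand option. Mates were counted separately, so counts overstate fragments, and PCR copies were not told apart.

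Symbols were matched for 52403 identifiers and not for 233. KD and WT were compared within each stage, and stages in a fit of all 12 libraries, by edgeR 4.0.16 (R 4.3.3) with TMM, filterByExpr (minimum count 10, minimum total 15), robust quasi-likelihood F-tests and Benjamini-Hochberg adjustment over all tested genes. The SE is the absolute log2 fold change over the square root of F. On simulated counts of the ESC comparison (15667 genes), 69% of 2-fold and 33% of 1.5-fold changes were recovered, and of the EB comparison (17012 genes) 75% and 61%. Calls on unchanged genes numbered 11 in the ESC and 12 in the EB simulation. Each simulation changed 200 genes, whereas 9667 genes were called in the EB comparison, so its recovery may differ from that in these data. Shares and levels carry no test. Coding length is the longest annotated coding sequence of GENCODE M21. Replicates are stated to be biological, their culture of origin is not given, and no 2 libraries held identical values.

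The members and lists were chosen with earlier results of these data known. Named genes were every mitochondrial member, up to 4 nuclear members per complex with the largest called EB change, members called in ESCs, limited isoforms with their paralogues, the highest level per complex, the largest stage differences and up to 2 called genes per list and comparison. Members named only by level or count were added after their values were seen, and 1 member is not reported here. Alternatives were DESeq2 1.42.0, 2 other scalings, no filter, a replicate block, a joint fit and leaving out each library.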

Additional observations from a re-analysis of the deposited data

Results flagged for a closer look

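The tests of the difference of the KD effect between EBs and ESCs passed for 21 members. Among those named, mt-Nd4 differed by 0.76, mt-Nd5 by 0.83, mt-Nd6 by 0.69 and mt-Cytb by 0.90 on the log2 scale, more positive in EBs, as did Atp5l by 0.79. Ndufa4l2 (−1.89) and Cox4i2 (−1.37) were more negative in EBs. With 1 library left out at a time, mt-Nd4, mt-Nd5 and mt-Nd6 were called in 3 of 12 fits each and Ndufa4l2 in 10 of 12.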

How the results depend on the processing

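In KD minus WT ESCs, 2 members were called, against 50 with no filter, 37 with DESeq2, 38 in the fit of all 12 libraries and 0 to 46 without 1 library. With the replicate block, 8 members were called in ESCs, 60 in EBs and 21 for the difference between stages. The same fits called 266 of 16081, 9655 of 17355 and 4023 of 18975 genes. Deviations of same-numbered KD and WT libraries correlated between −0.02 and 0.02, and those of differently numbered libraries between −0.03 and 0.02. These values do not show whether the numbers pair samples, because most of the deviations may be noise. In KD minus WT EBs, 60 members were called, against 33 in the fit of all 12 libraries and 53 to 62 without 1 library. Without 1 library, between 8923 of 18026 and 9230 of 17988 genes were called. The difference between stages gave 21, against 11 with no filter, where 4281 of 31363 genes were called, and 10 to 37 without 1 library. The cause was not tested. Reversed values were Uqcr10 for the difference between stages without WT ESC replicate 2 (−0.22, edgeR adjusted p = 0.0476), and with library size only mt-Nd2 (0.10) and Sdhd (0.48) in WT EB minus WT ESC and mt-Cytb (0.0457) in KD EB minus KD ESC. Counts of EB minus ESC lay between 88 and 92 in all settings run. Low counts limit mt-Atp8, mt-Nd3, mt-Nd4l, Ndufb4c and Ndufa4l2 in EBs.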

Other observations

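Uqcrc1, a core protein of complex III, was 1 of 2 members, with mt-Co2, whose libraries of 1 group differed more than 3-fold at 50 counts or more. It had 1132, 83 and 82 counts in KD EBs, 68, 97 and 4963 in WT EBs, 339, 310 and 1307 in KD ESCs, and 320, 243 and 5788 in WT ESCs. The high libraries were KD EB replicate 1, WT EB replicate 3, KD ESC replicate 3 and WT ESC replicate 3, and the gene passed the test in no comparison. Ndufs3, a core subunit of complex I, had 3 counts in all 12 libraries together, all in WT EB replicate 2, whereas the other 6 nuclear core subunits of complex I were tested at both stages.

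The chromosome 1 copies of mitochondrial genes received counts of their own. Gm28438, the copy of mt-Nd3, had 584, 524 and 346 counts in KD EBs against 248, 98 and 108 in WT EBs, and Gm10222, the copy of mt-Nd4l, had 137, 123 and 93 counts in KD EBs against 53, 52 and 56 in WT EBs. Gm29216, which shares sequence with mt-Co1, had 1276, 904 and 3557 counts in KD ESCs against 841, 9400 and 1443 in WT ESCs, highest in WT ESC replicate 2, the library in which mt-Co1 was lowest.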
